A study of Mus musculus with 12 samples.

Results

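Genes of the type I interferon response were followed in mouse regulatory T cells (Tregs) from the spleen and from perigonadal fat, in control mice and in mice labelled as knockouts of the transcription factor T-bet. The members were the 39 genes of a named list of interferon response genes, found through every array probe whose gene symbol was on the list. Of the 39 genes, 30 were measured, out of 10025 genes measured in all. Another 7 (Ifit1, Irf7, Oas1a, Oas2, Oasl1, Mx1 and Mx2) had probes that were detected, at a detection p below 0.05, in fewer than 3 of the 12 arrays. The other 2, Ifi44 and Herc6, had no probe named here and were not analysed.

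Type I interferons act on a receptor made of Ifnar1 and Ifnar2. Signalling from the receptor leads to a complex that holds STAT2 and IRF9 and binds the interferon-stimulated response element, a short promoter motif. The genes switched on in this way detect viral nucleic acid, block viral protein synthesis and replication, and help to load MHC class I with peptide. A smaller group, with USP18 among them, damps the signal again.

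The study profiled 12 Illumina bead arrays in 4 groups of 3, all from C57BL/6 mice on chow diet. All 4 groups carried Foxp3Cre, a Cre recombinase with a YFP tag driven by the Treg gene Foxp3. The 2 control groups, from spleen and from perigonadal fat, carried it alone, and the 2 groups labelled T-bet knockout carried it with Tbetflox, a floxed allele of the T-bet gene Tbx21. The age and number of animals behind each array are not given in the labels, so the p-values measure the spread between these arrays, which may be technical.

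Tbx21 did not separate the genotypes. Control arrays gave log2 intensities of 4.54, 4.88 and 5.19 for spleen and 5.50, 7.27 and 5.17 for fat. Arrays labelled knockout gave 4.69, 5.74 and 4.72 for spleen and 6.62, 7.57 and 4.94 for fat. Where this probe lies relative to the floxed part of the gene is not known here, so it does not check the labels, and "knockout" below means the label. On the probe used, Foxp3 was detected in all 12 arrays. Between 27.0 and 40.9% of probes were detected per array, and arrays of 1 group correlated at 0.771 to 0.844 in fat and 0.881 to 0.915 in spleen.

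Promoters of 5 members are shown first, because their windows hold, or do not hold, core letters of the motif through which the pathway acts. Each is a RefSeq window of assembly GRCm38.p6, from 250 bases before to 50 bases after an annotated gene start, printed 5′ to 3′ on the gene's strand. Ifit2, Ifit3 and Psmb9 are the members lower in fat that have a window. Isg15 and Gbp3, which did not pass between tissues, were chosen after their values and motifs were seen. Capitals mark the core of the interferon-stimulated response element (GAAA, any 2 bases and GAAA, or TTTC, any 2 bases and TTTC when it lies on the other strand) and the gamma-activated site (TTCNNNGAA, the same on both strands). Ifit2 has a second window with neither motif, and Gbp3 another with neither. The windows lie at chr19:34550444-34550743 (+) for Ifit2, chr19:34583279-34583578 (+) for Ifit3, chr17:34187281-34187580 (−) for Psmb9, chr4:156200769-156201068 (−) for Isg15 and chr3:142559794-142560093 (+) for Gbp3.
Ifit2: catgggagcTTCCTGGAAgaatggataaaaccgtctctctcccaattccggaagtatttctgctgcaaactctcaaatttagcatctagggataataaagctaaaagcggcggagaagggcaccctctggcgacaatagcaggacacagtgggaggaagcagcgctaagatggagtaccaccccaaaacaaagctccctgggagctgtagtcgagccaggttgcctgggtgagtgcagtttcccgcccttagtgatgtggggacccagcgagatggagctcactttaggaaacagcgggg
Ifit3: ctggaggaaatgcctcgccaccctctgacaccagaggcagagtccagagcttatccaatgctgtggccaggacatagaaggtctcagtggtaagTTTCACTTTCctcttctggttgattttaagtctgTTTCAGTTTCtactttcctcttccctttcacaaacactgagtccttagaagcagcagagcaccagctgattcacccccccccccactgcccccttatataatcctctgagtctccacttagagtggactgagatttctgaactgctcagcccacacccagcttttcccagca
Psmb9: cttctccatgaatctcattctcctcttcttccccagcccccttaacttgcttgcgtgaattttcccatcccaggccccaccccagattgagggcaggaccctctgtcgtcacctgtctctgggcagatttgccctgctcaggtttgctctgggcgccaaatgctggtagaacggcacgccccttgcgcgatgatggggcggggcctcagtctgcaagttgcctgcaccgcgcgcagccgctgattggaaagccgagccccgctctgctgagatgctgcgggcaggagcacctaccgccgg
Isg15: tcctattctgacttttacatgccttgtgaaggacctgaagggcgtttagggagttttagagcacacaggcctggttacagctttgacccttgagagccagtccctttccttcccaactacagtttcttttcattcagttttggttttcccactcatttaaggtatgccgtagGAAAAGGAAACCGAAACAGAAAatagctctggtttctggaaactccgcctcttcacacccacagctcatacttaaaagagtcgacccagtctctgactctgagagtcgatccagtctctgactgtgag
Gbp3: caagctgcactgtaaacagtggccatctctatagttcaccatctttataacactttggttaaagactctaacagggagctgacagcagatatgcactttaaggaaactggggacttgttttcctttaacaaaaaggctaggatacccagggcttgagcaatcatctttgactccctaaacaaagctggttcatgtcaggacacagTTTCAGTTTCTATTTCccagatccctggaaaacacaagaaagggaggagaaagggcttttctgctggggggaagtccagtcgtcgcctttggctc

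Ifit3 held 2 response element cores, starting 156 and 122 bases before the gene start. Isg15 held 3, at 78, 72 and 66 bases, and Gbp3 held 2, at 45 and 39 bases, and within each of these genes the neighbouring cores overlap. Ifit2 held no response element core in either window, and a gamma-activated site core 241 bases before the start of the first. Psmb9 held neither motif. Its window shares 275 bases with that of Tap1, which is read from the opposite strand, and this stretch lies between the genes for a proteasome subunit and a peptide transporter of the same pathway.

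Of the 30 measured members, 24 had a window in the RefSeq table, and Usp18, Parp14, Parp9, Rtp4, Dhx58 and Zbp1 had no entry. A response element core on either strand was found in 11 of these 24 genes (45.8%), against 3.99% of all 27025 genes with a window. A gamma-activated site core was found in 7 of 24 (29.2%), against 9.55% of all genes. Of the members that passed the test between tissues, 1 of 3 with a window held a response element core, and of those that did not pass, 10 of 21 did. A match describes letters in the window and is not evidence of binding. No match means only that these exact letters are absent from the window. Variant forms and sequence outside the windows were not searched.

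In 14 of the 30 measured members the probe used was detected in all 12 arrays. Detection differed by tissue: 23 members passed the filter (detection in at least 3 arrays) in both tissues, 6 passed through the spleen arrays alone (Usp18, Oas3, Rsad2, Ifih1, Dhx58 and Cmpk2) and none through the fat arrays alone, while Parp9 reached it only over both tissues together. Those 6 had little room to be lower in spleen, and their direction is partly fixed by the filter. In single arrays, 23 to 30 of the measured members were detected in spleen and 17 to 24 in fat. The mean level of the 30 members was 7.10 to 7.46 in the 6 spleen arrays and 6.27 to 6.69 in the 6 fat arrays, so the tissues did not overlap. These counts and this mean include the 6 members that passed through spleen alone, so the gap is partly fixed by the filter.

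**Figure D1:**
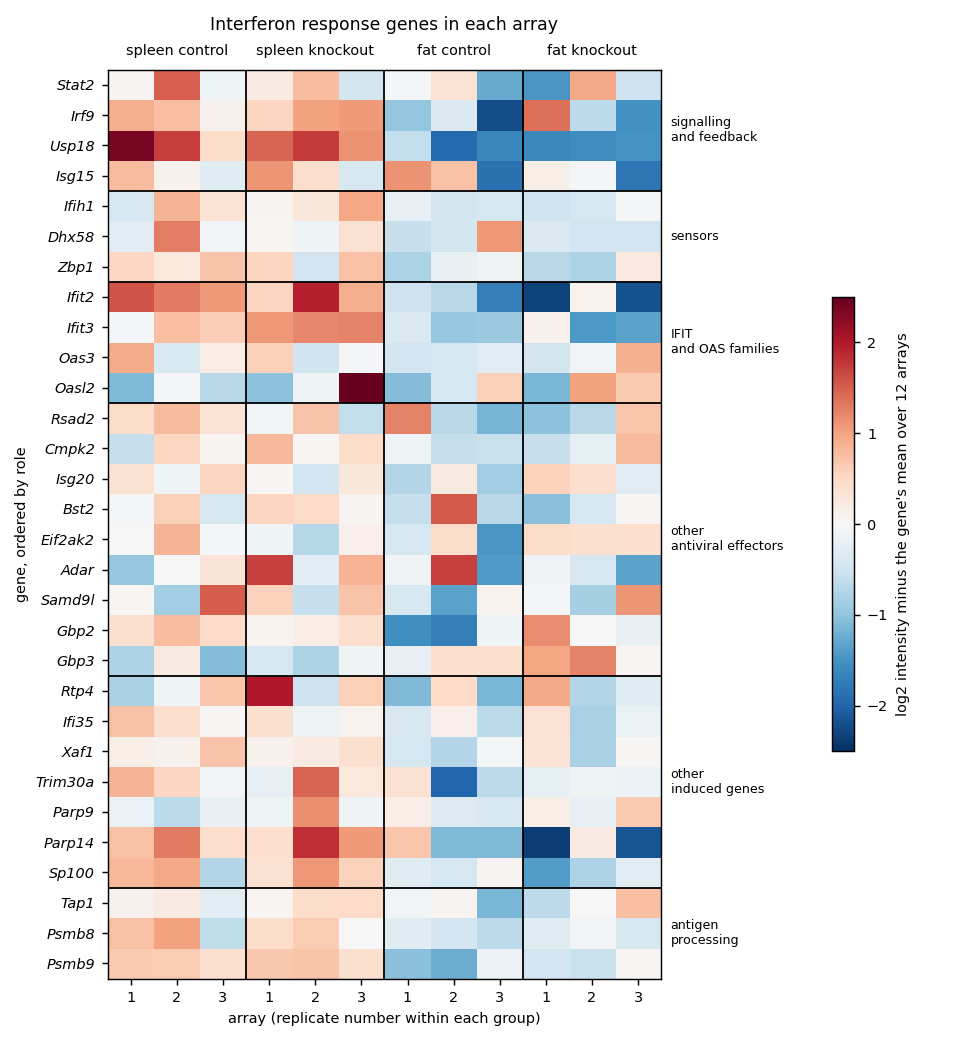
Level of each of the 30 measured members in each array, as log2 intensity minus the gene's own mean over the 12 arrays. Columns are the 3 arrays of each group and rows are ordered by role. Red is above and blue below the gene's mean. Usp18, Ifit2 and Psmb9 are red in spleen and blue or pale in fat, and Gbp3 is the reverse in most arrays.

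Fat and spleen Tregs were compared first over both genotypes, 6 arrays against 6. In fat, 5 members were lower and passed the limma test at a Benjamini-Hochberg adjusted p below 0.05 over all genes: Usp18, Ifit2, Parp14, Ifit3 and Psmb9. None was higher. That is 5 of 30, beside 8.41% of all 10025 genes called lower and 7.27% called higher. The median log2 difference, fat minus spleen, was −0.56 over the measured members and −0.069 over all genes. Of the members 28 of 30 lay below 0, beside 54.5% of all genes. The median and this count include the 6 members that passed the filter through the spleen arrays alone, whose direction is partly fixed by it. Within the 3 slides, which each hold 1 array of every group, the median over members was −0.50, −0.61 and −0.56. With the filter set to 3 arrays in each tissue, a setting added after the data were seen, 23 members remained and 4 of them fell, beside 8.97% of the 7181 genes left. In RNA from whole samples, fewer cells of a type and less RNA per cell cannot be told apart.

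The signalling and feedback genes were led by Usp18, a protease that strips ISG15 from proteins and holds back signalling from the interferon receptor. Usp18 read 8.73, 8.08 and 6.81 in the spleen controls, 7.80, 8.09 and 7.47 in the spleen knockouts, 5.73, 4.41 and 4.72 in the fat controls, and 4.73, 4.78 and 4.86 in the fat knockouts. Every spleen array was above every fat array. The difference was −2.96 (SE 0.34, n = 6 per tissue, limma adjusted p 0.000147), lower in 6 of 6 pairs of arrays that share a slide and a genotype. Usp18 was detected in 6 of 6 spleen arrays and 1 of 6 fat arrays. In the knockouts, where no fat array detected it, the fall was at least 6.29-fold, counted from the lowest signal that those arrays detected. A second, dimmer Usp18 probe fell too (−2.14, adjusted p 0.00700 over all kept probes), detected in 5 spleen arrays and no fat array.

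Irf9, the DNA-binding subunit of the complex formed with STAT2, read 8.59, 8.44 and 7.79 in spleen controls and 8.22, 8.70 and 8.75 in spleen knockouts. The fat arrays read 6.72, 7.32 and 5.47 in controls and 9.06, 7.03 and 6.18 in knockouts. The spleen arrays lay close together, the fat arrays were spread, and fat knockout array 1 was above every spleen array. The difference was −1.45 (SE 0.47, adjusted p 0.0551) and passed with the slide as a block (0.0417). Stat2, its partner, differed by −0.65 and Isg15, the ubiquitin-like protein that USP18 removes, by −0.57, and neither passed. Isg15 split within groups: in both fat groups array 3 was lowest, at 5.08 and 5.14, while the other fat arrays read 6.91 to 8.08. Irf7, the factor that amplifies interferon production, was below the filter.

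Among the IFIT and OAS families, the 2 measured IFIT genes fell. Ifit2, which binds viral RNA and restrains its translation, read 8.40, 8.14 and 7.90 in spleen controls, 7.38, 8.77 and 7.75 in spleen knockouts, 6.32, 6.14 and 5.12 in fat controls and 4.52, 6.93 and 4.66 in fat knockouts. The tissues did not overlap, though fat knockout array 2, at 6.93, came near the lowest spleen array, at 7.38. The difference was −2.44 (SE 0.44, adjusted p 0.00272), lower in 6 of 6 slide pairs. A second probe, detected in 6 spleen arrays and 2 fat arrays, fell by 1.95 (adjusted p 0.00744). It passed the filter through spleen alone, so its fall is partly fixed by the filter.

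Ifit3, which stabilises IFIT complexes, read 7.90, 8.70 and 8.56 in spleen controls and 9.03, 9.15 and 9.19 in spleen knockouts. Fat Tregs gave 7.58, 7.0 and 7.01 in controls and 8.04, 6.51 and 6.61 in knockouts. Fat knockout array 1 overlapped spleen control array 1, and all other fat arrays were below every spleen array. The difference was −1.63 (SE 0.30, adjusted p 0.00322). Its second probe, detected in 4 spleen arrays and no fat array, differed by −0.87 and did not pass (adjusted p 0.0850). Mouse Ifit3 has a near-identical neighbour, Ifit3b, and whether the probes tell them apart was not analysed here.

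OAS enzymes make the messenger that activates RNase L. Of the 5 OAS and OAS-like genes listed, Oas3 and Oasl2 were measured, with limma differences of −0.28 and −0.14 and adjusted p of 0.619 and 0.921. Oas3 was detected in 3 spleen arrays and 1 fat array, which left little room for a fall.

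The 3 sensors all lay below 0 without passing on the probes used. Ifih1, which detects long double-stranded RNA, differed by −0.70, and Dhx58, a helicase of the same family, by −0.42. Both were near the detection limit, with Ifih1 detected in 4 spleen arrays and no fat array. Zbp1, a sensor of Z-form nucleic acid that triggers cell death, gave the widest disagreement between probes. Its brightest probe, the one used, differed by −0.76 (adjusted p 0.0977). Its second probe read 9.46, 9.46 and 9.44 in spleen controls, 10.30, 9.49 and 9.41 in spleen knockouts, 6.59, 5.71 and 4.51 in fat controls and 6.21, 5.59 and 5.24 in fat knockouts. Its highest fat array read 6.59 and its lowest spleen array 9.41. It fell by 3.95 (SE 0.34, adjusted p 1.90e-05 over all kept probes), by 3.85 in controls and by 4.05 in knockouts. The remaining probe fell by 1.69 (adjusted p 0.0144). That probe was detected in 6 spleen arrays and 1 fat array, so its fall is partly fixed by the filter. Which transcripts the probes read was not analysed here.

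The other antiviral effectors did not pass in either direction, with 8 of 9 measured genes below 0 and a median of −0.43. Rsad2 (−0.54), which makes a chain-terminating nucleotide, and Cmpk2 (−0.43), its neighbour and supplier of nucleotide precursor, were detected in 2 and 1 of 6 fat arrays. Bst2 (−0.41), which tethers budding virus to the cell, and Samd9l (−0.47), an inhibitor of translation, were detected in all 12 arrays and overlapped between tissues. Mx1 and Mx2, the GTPases that trap viral capsids, were below the filter.

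Gbp3, an interferon-induced GTPase, went the other way from most. It read 7.86, 8.85 and 7.55 in spleen controls, 8.21, 7.86 and 8.55 in spleen knockouts, 8.42, 9.05 and 9.05 in fat controls and 9.61, 9.87 and 8.67 in fat knockouts. Spleen control array 2 overlapped the fat arrays. The difference was +0.96 (SE 0.31, adjusted p 0.0526), higher in 6 of 6 slide pairs but short of the threshold, which it passed with cyclic loess (0.0254) or median scaling (0.0112). A second probe differed by +0.42. Gbp3 and Parp9 were the 2 measured members above 0.

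Gbp2, a related GTPase, was −0.79 over both genotypes (adjusted p 0.132). It read 8.79, 9.16 and 8.86 in spleen controls, 8.46, 8.57 and 8.80 in spleen knockouts, 6.84, 6.67 and 8.27 in fat controls and 9.56, 8.38 and 8.20 in fat knockouts. On the probe used, the 3 fat controls lay below every spleen array, and the fat knockouts overlapped the spleen arrays.

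**Figure D2:**
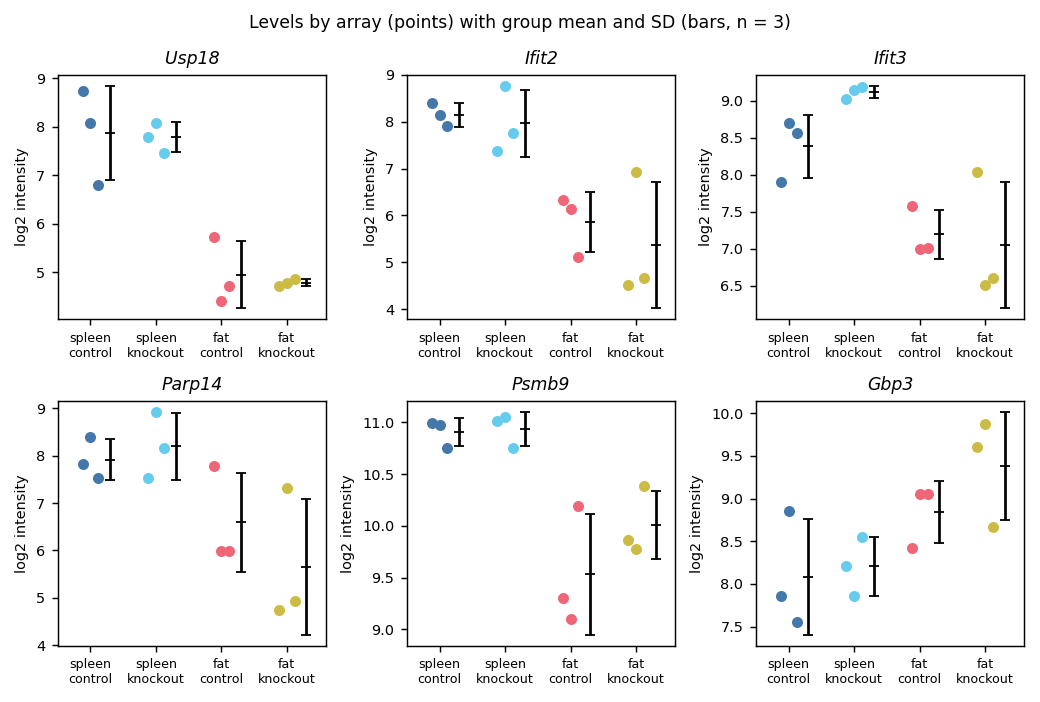
Log2 intensity of Usp18, Ifit2, Ifit3, Parp14, Psmb9 and Gbp3 in each array (points) with the mean and SD of each group of 3 (bars). The vertical axes start at different values. The 5 genes that fell are lower in most or all fat arrays, and the Gbp3 means are higher in fat, a difference that did not pass.

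Among the remaining induced genes, Parp14 fell. This mono-ADP-ribosyltransferase read 7.83, 8.39 and 7.53 in spleen controls and 7.52, 8.92 and 8.15 in spleen knockouts. Its fat levels were 7.79, 5.99 and 5.99 in controls and 4.74, 7.31 and 4.93 in knockouts. Fat control array 1 fell within the spleen range, so the tissues overlapped. The difference was −1.93 (SE 0.50, adjusted p 0.0209), lower in 6 of 6 slide pairs. Leaving out array 2 of the spleen controls (0.0535) or array 2 of the spleen knockouts (0.0551) ended the call. Its other probes differed by −1.60 (adjusted p 0.0393) and −0.47 (0.486). The first of these was detected in 6 spleen arrays and 2 fat arrays, so its fall is partly fixed by the filter. The other was detected in 6 arrays of each tissue. Parp9, another member of the PARP family, differed by +0.0068 and was detected in only 2 arrays of each tissue.

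Sp100, the nuclear body protein, showed −1.04 (adjusted p 0.0538) on the probe used. Of its 4 other probes, 2 passed (−1.36, adjusted p 0.00569, and −1.40, 0.0286) and 2 did not (−1.08 and −0.05). Sp100 has related copies in the mouse genome, and whether the probes tell them apart was not analysed here. Trim30a, a ubiquitin ligase, was at −0.94, Xaf1, a promoter of apoptosis, at −0.56 and Ifi35 at −0.52, and none passed.

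The antigen processing members sit side by side in the MHC region. Psmb9, a catalytic subunit of the immunoproteasome, read 10.99, 10.97 and 10.75 in spleen controls and 11.01, 11.05 and 10.75 in spleen knockouts. In fat it read 9.30, 9.10 and 10.19 in controls and 9.86, 9.78 and 10.38 in knockouts. The spleen arrays lay close together, and all were above the fat arrays. The difference was −1.15 (SE 0.24, adjusted p 0.00736). Psmb8, another catalytic subunit, differed by −0.74 (adjusted p 0.109) on the probe used, and its second probe fell by 1.44 (0.0173). Tap1, which carries peptides into the endoplasmic reticulum and shares Psmb9's promoter region, differed by −0.36 (adjusted p 0.477).

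Reading every kept probe rather than 1 per gene, 13 of 52 member probes passed, all lower in fat, and 49 of 52 lay below 0. In the same fit 6.49% of all 20367 kept probes were called lower and 53.8% lay below 0. Of the 22 member probes that were not the brightest of their gene, 8 passed. In each of the 14 members with several probes, all probes agreed in sign over both genotypes. Within controls they agreed in 11 members and within knockouts in 12. Several of these probes passed the filter through the spleen arrays alone. Among them were the second Usp18, Ifit2 and Ifit3 probes, a dimmer Parp14 probe and a dimmer Zbp1 probe. Their fall in fat is partly fixed by the filter, so these counts are not independent support for the tissue difference. When the probes of a gene were averaged instead, 10 of 30 members fell, beside 9.34% of all genes: the 5 above with Zbp1, Irf9, Psmb8, Sp100 and Adar. The averages of Usp18, Ifit2, Ifit3, Parp14, Zbp1 and Adar include probes that passed the filter through spleen alone.

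**Figure D3:**
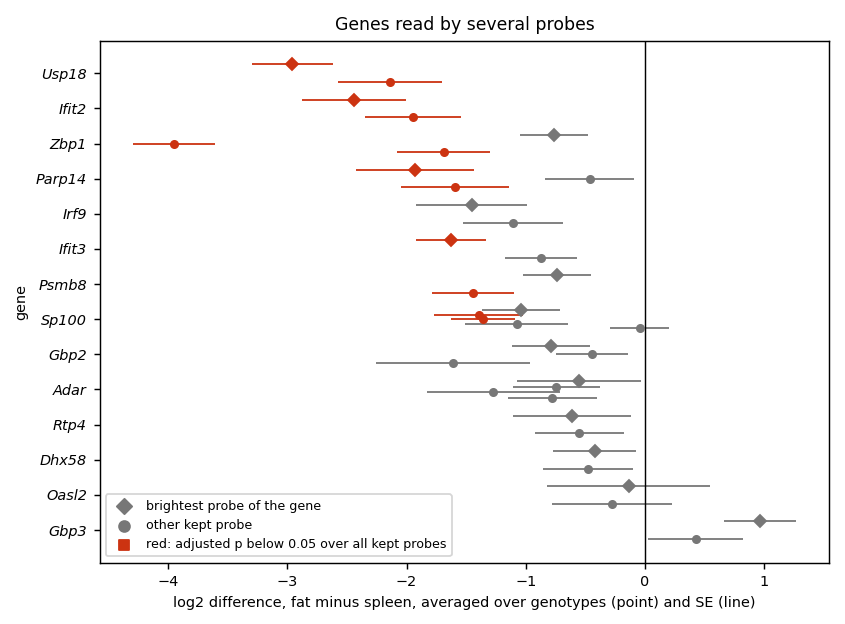
Log2 difference, fat minus spleen over both genotypes, with SE, for each kept probe of the 14 members with more than 1. Diamonds are the probe used for the gene and red marks an adjusted p below 0.05 over all kept probes. A Zbp1 probe that is not the brightest lies farthest left, at −3.95.

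The tissue difference was next read within each genotype, 3 arrays against 3. In controls 3 of 30 members were lower in fat, beside 2.78% of all genes called lower: Usp18 (−2.92, SE 0.48, limma adjusted p 0.00413), Ifit2 (−2.29, SE 0.62, 0.0479) and Psmb9 (−1.37, SE 0.34, 0.0353). In knockouts 3 of 30 were lower, beside 2.38%: Usp18 (−2.999, SE 0.48, 0.00384), Ifit2 (−2.60, SE 0.62, 0.0286) and Ifit3 (−2.07, SE 0.42, 0.0134). No member passed as higher, beside 3.66% and 3.39% of all genes. The medians were −0.73 in controls and −0.60 in knockouts, and those over all genes −0.065 and −0.083. In each genotype 25 of 30 members were below 0. Of all kept probes, 53.0% were below 0 in controls and 54.1% in knockouts. The medians and counts here include the 6 members that passed the filter through the spleen arrays alone, Usp18 among them. With detection in 3 arrays of each tissue, a setting added after the data were seen, Psmb9 passed in controls, and Ifit2 and Ifit3 in knockouts.

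Ifit2 in controls rests near the threshold, and its call was lost without any 1 of the 6 spleen arrays or of the 3 fat controls, with adjusted p of 0.0516 to 0.151. Psmb9 in controls was lost without any 1 of the 6 spleen arrays or without fat control array 1 or 2, with adjusted p of 0.0516 to 0.118. Ifit2 in knockouts was lost without any 1 of the spleen knockouts, or without fat knockout array 1 or 3 (0.0548 to 0.117). Ifit3 in knockouts was lost without spleen knockout array 2 (0.0506). Usp18 passed in both genotypes without any 1 of the 12 arrays.

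Groups that did not overlap numbered 8 lower and 0 higher among members in controls, beside 14.7% and 11.4% of all genes. Those lower in controls were Usp18, Ifit2, Ifit3, Irf9, Gbp2, Psmb9, Zbp1 and Xaf1. In knockouts they numbered 10 lower and 2 higher, beside 14.5% and 11.5%, with Eif2ak2 and Gbp3 as the pair that was higher in fat. Over both genotypes 3 members did not overlap and were lower, Usp18, Ifit2 and Psmb9, and none was higher, beside 4.86% and 4.85% of all genes.

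**Figure D4:**
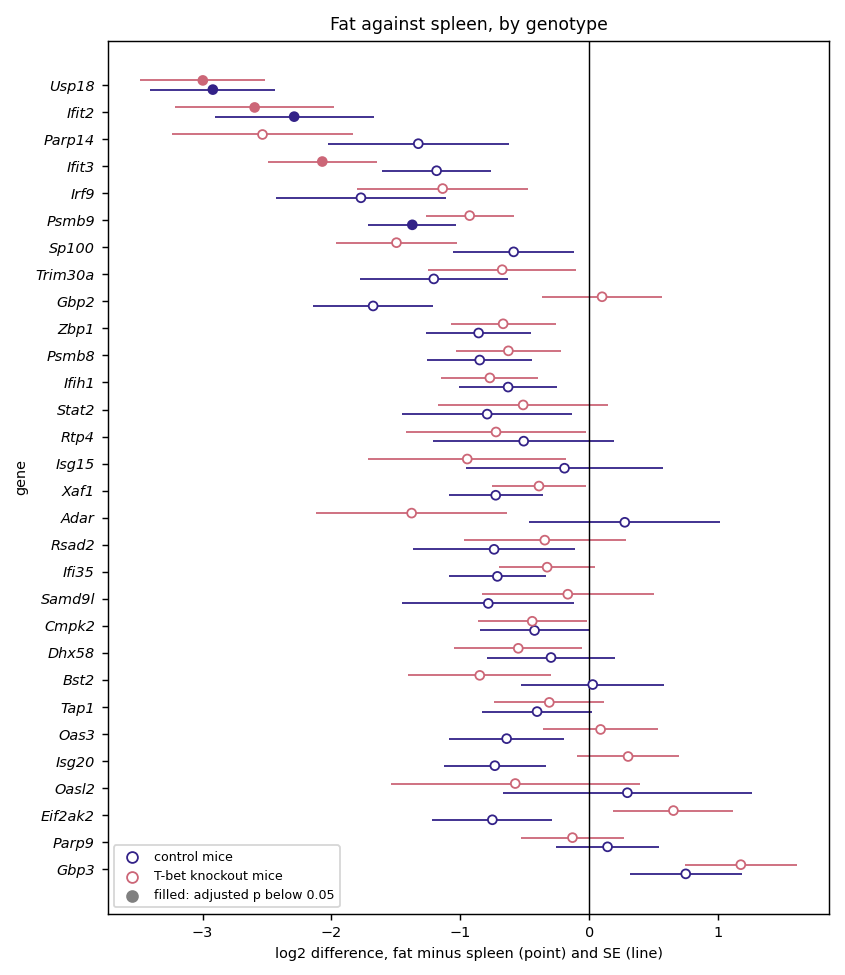
Log2 difference, fat minus spleen, with SE, for the 30 measured members in control mice and in mice labelled T-bet knockout. Filled points passed at an adjusted p below 0.05. Usp18 and Ifit2 passed in both genotypes, and Gbp3 is the member farthest to the right.

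Knockout and control were then compared within each tissue. No member passed in fat, in spleen or over both tissues, and no member passed in the difference between the tissues, by limma over all 10025 genes. At an unadjusted p below 0.05 there was 1 member in fat, 0 in spleen, 0 over both and 1 in the difference between tissues, beside 6.93%, 2.18%, 4.13% and 3.81% of all genes. After adjustment, in fat 1 gene of 10025 passed (0.00998%, Slc10a7, which is not an interferon gene and was named after its values were seen), and in the other comparisons 0% did. The intervals were wide: the median SE of a member was 0.47 for a comparison of 3 arrays with 3. The medians over members, knockout minus control, were +0.24 in fat, +0.05 in spleen and +0.15 over both tissues, beside medians over all genes of 0.0075, 0.0036 and 0.012.

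Gbp2 had the lowest p in fat. Its difference was +1.45 (95% interval 0.43 to 2.47, adjusted p 0.518), higher in the knockout on 2 of 3 slides. In spleen it was −0.33, and the difference of these effects was +1.78 (adjusted p 0.999). Fat knockout array 1 was the highest, at 9.56, and the highest fat control read 8.27. The other kept Gbp2 probes disagreed. A second averaged 6.05 in fat controls and 7.23 in fat knockouts, with 7.33 and 6.85 in spleen. The remaining probe averaged 5.62 and 5.59 in fat, with 6.71 and 7.72 in spleen.

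Eif2ak2, the kinase PKR that stops translation on double-stranded RNA, read 7.95, 8.86 and 6.94 in fat controls and 8.86, 8.79 and 8.82 in fat knockouts. In spleen it read 8.41, 9.25 and 8.34 in controls and 8.29, 7.68 and 8.53 in knockouts. The fat knockouts lay close together and within the wide range of the fat controls. The difference in fat was +0.90 (interval −0.11 to 1.92, adjusted p 0.803).

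Adar, an RNA-editing enzyme with an interferon-induced form, read 5.01, 5.95 and 6.28 in spleen controls and 7.66, 5.67 and 6.82 in spleen knockouts. In fat it read 5.87, 7.67 and 4.54 in controls and 5.86, 5.53 and 4.62 in knockouts. The spread within groups was as wide as the differences, +0.97 in spleen and −0.68 in fat.

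Oasl2, an OAS-like protein that modulates sensing, read 4.54, 5.61 and 4.95 in spleen controls and 4.61, 5.54 and 9.03 in spleen knockouts. Its difference of +1.36 in spleen comes from knockout array 3, and was +0.04 without it. In fat it read 4.55, 5.20 and 6.24 in controls and 4.50, 6.65 and 6.30 in knockouts.

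Rtp4, a receptor-transporting protein induced by interferon, read 4.92, 5.59 and 6.42 in spleen controls and 7.73, 5.20 and 6.32 in spleen knockouts, with 4.61, 6.22 and 4.57 in fat controls and 6.67, 4.99 and 5.42 in fat knockouts. Knockout array 1 was the highest in each tissue. The difference in spleen was +0.77 (adjusted p 0.99996).

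Ifit3 had spleen groups that did not overlap, with every knockout (9.03 to 9.19) above every control (7.90 to 8.70). The difference was +0.74 (interval −0.18 to 1.66, adjusted p 0.99996). With the probes averaged it was −0.04. Parp9 also did not overlap in spleen, which makes 2 of 30 higher and 0 lower, beside 4.75% and 4.09% of all genes. In fat no member's groups were apart, beside 4.48% of all genes higher and 4.27% lower.

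For the genes that fell in fat, the genotype differences in fat were −0.16 for Usp18 (interval −1.22 to 0.90), −0.49 for Ifit2, −0.15 for Ifit3, −0.93 for Parp14 and +0.48 for Psmb9. None passed, and the intervals do not show that the genotypes were alike.

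**Figure D5:**
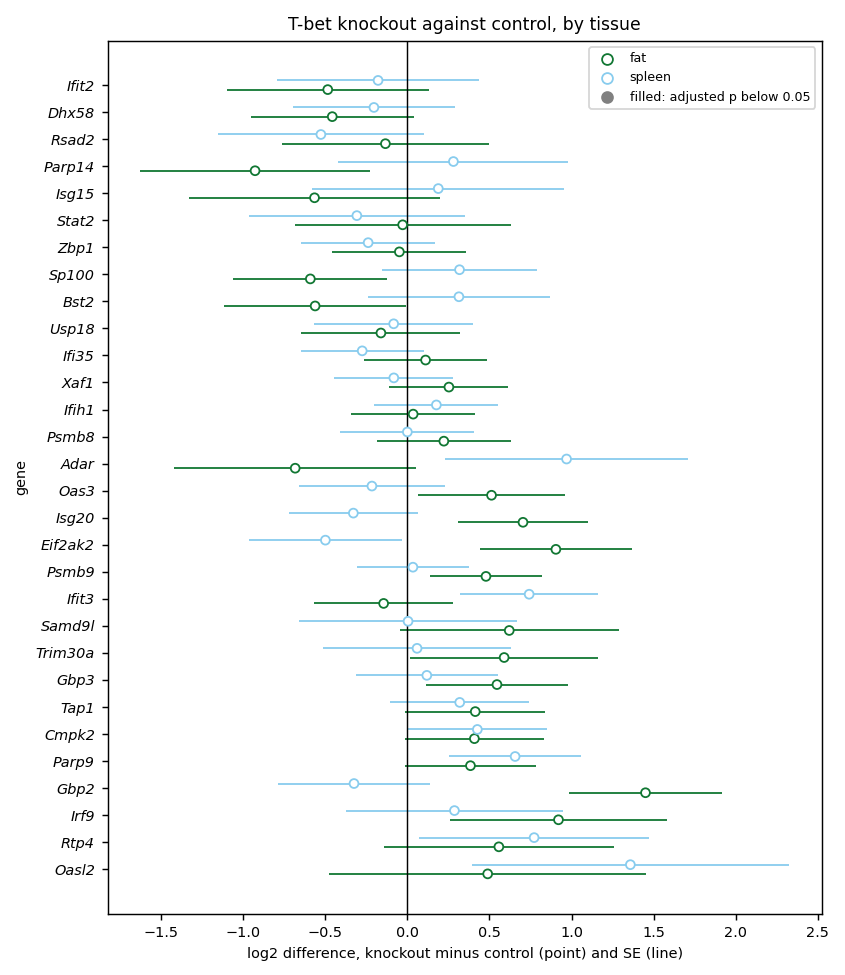
Log2 difference, knockout minus control, with SE, for the 30 measured members in fat and in spleen. No point is filled, since none passed. Gbp2 in fat and Oasl2 in spleen lie farthest to the right, and Parp14 in fat farthest to the left.

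The rest of the pathway was read from lists of other genes, over both genotypes. The receptor and its signalling chain gave 1 rise and 1 fall among 8 measured genes. Ifnar1, a receptor subunit, rose in fat by 1.13 (SE 0.25, limma adjusted p 0.00970), and Ptpn6, the phosphatase SHP-1, which restrains cytokine receptor signalling, fell by 2.78 (SE 0.37, 0.000402). Of 11 measured sensing genes, 2 rose and 1 fell. Irf5, a transcription factor of myeloid and B cells, rose by 3.44, Cgas, the cytosolic DNA sensor, rose by 1.34, and Sting1, the adaptor that Cgas signals through, fell by 1.79. Of 9 listed interferon genes, 1 was measured and it did not pass.

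Of 9 measured genes of the interferon-gamma pathway, 3 rose and none fell. They were Jak2 (+3.27, SE 0.42), a kinase of the interferon-gamma receptor, Ifngr1 (+2.23, SE 0.40), the receptor itself, and the chemokine Cxcl10 (+2.54, SE 0.57). Among 34 further interferon-induced genes 12 fell (35.3%) and 3 rose (8.82%), beside 8.41% and 7.27% of all genes, and the list's median was −0.90. The largest falls were Trim21 (−2.80, SE 0.36), an antibody receptor of the cytosol, Slfn1 (−2.58, SE 0.43), Ifi47 (−2.31, SE 0.45), an immunity-related GTPase, and Dtx3l (−2.10, SE 0.44), the ubiquitin ligase that partners PARP9. The 3 that rose are 1 family of membrane proteins that block viral entry: Ifitm3 (+3.08, SE 0.45), Ifitm1 (+2.92, SE 0.41) and Ifitm2 (+2.81, SE 0.34). Within MHC class I presentation 2 of 12 fell, Tap2 (−1.63, SE 0.43), the partner of TAP1, and Psmb10 (−1.27, SE 0.21), another catalytic subunit of the immunoproteasome.

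Within genotypes, of the 34 further induced genes, 3 fell and 3 rose in controls, beside 2.78% and 3.66% of all genes. In knockouts 4 of the 34 fell and 3 rose, beside 2.38% and 3.39% of all genes. Between genotypes none of these lists held a gene that passed in either tissue.

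Markers of Tregs and of other cells moved with tissue. Of 13 measured macrophage and monocyte markers, 9 rose in fat (Cd163 +4.41, Lyz2 +3.90, Apoe +3.56, C1qb +3.47 and 5 others) and none fell. Their summed intensity spanned 1718 to 2891 over the spleen control arrays and 1491 to 2008 over the spleen knockout arrays. Over the fat control arrays it spanned 4529 to 17447, and over the fat knockout arrays 4499 to 8715. Fabp4, the 1 adipocyte marker measured, rose by 4.72, while 5 others of that list, Adipoq, Plin1, Lep, Cidec and Retn, were below the filter or had no probe named here. Of 8 measured T cell markers, 3 fell, by 0.72 to 0.85 (Cd3d, Cd3g and Cd3e), and none rose. Of 6 measured Treg markers, 3 rose, Il2ra by 1.51, Ctla4 by 1.11 and Tnfrsf18 by 0.86, and Izumo1r, the folate receptor FR4, fell by 3.24, while Foxp3 (+0.74) and Ikzf2 (−0.35) did not pass. The kept Foxp3 probes disagreed in direction. A second, of similar brightness, averaged 8.34 in spleen and 6.92 in fat, and a dimmer probe averaged 5.52 and 5.88. In fat 1 of 4 dendritic cell markers (Itgax, +1.30) and 1 of 5 NK cell markers (Eomes, +1.29) rose, and none of 2 B cell, 1 stromal and 2 endothelial markers passed. Of 6 measured markers of plasmacytoid dendritic cells, which make type I interferon, none passed. Of 10 immediate early and stress genes, 3 rose (Ier3, Fosb and Atf3). The part of these cells and of handling in the member differences was not tested.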

How the data were processed

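RNA amplified from Tregs was hybridised to 12 bead arrays, per the labels' protocols. They give an input of 5 pg of RNA, and whether that unit is right is not known here. The part of so small an input in dim probes and in the spread between arrays was not tested. Per the file headers, the authors deposited the mean bead intensity of each probe on a linear scale before normalization, and beside it a detection p-value. They also deposited a normalized intensity table, used as an alternative. GenomeStudio is named in the submitters' processing notes, and its version is not given in the sources used here. For the values used here, limma 3.58.1 (R 4.3.3) corrected the deposited intensities by its nec function, with offset 16 and negative controls inferred from the detection p-values. They were then quantile normalized and put on the log2 scale. Kept were 20367 of 45281 probes, those with a detection p below 0.05 in at least 3 of 12 arrays. Members had 68 probes, of which 52 were kept. The brightest kept probe stood for a gene, named from the platform annotation (34807 symbols checked through Entrez numbers, 0 changed), which gave 10025 genes.

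All 12 arrays entered a limma model of 4 group means, with 8 residual and 3.88 prior degrees of freedom and with Benjamini-Hochberg adjustment over all genes in each of 7 comparisons. SE is the moderated standard error and intervals are 95%. "At least" folds use the lowest detected signal of an array, 4.83 to 5.53 on the log2 scale. The number of arrays limits the precision. The scripts were tested on simulated data.

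Array names in the labels share 1 of 3 slide numbers, and each slide holds 1 array of every group with the same replicate number. The letter that ends an array's name goes with its group, so place on the slide and group cannot be told apart. Deviations of same-slide arrays correlated at −0.048 to 0.347, and 4 of 18 pairs were over 0.1. No arrays held identical values.

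The members and gene lists were chosen with earlier results of these data known. Named with every array's value were the members that passed in any comparison and the 4 with the largest difference in each, with up to 4 passing genes per further list. Gbp3 and the second Zbp1 probe were added after their values were seen. Alternatives changed the probe rule, background correction, normalization, table, filter, slide block, array weights, eBayes settings and arrays included.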

Additional observations from a re-analysis of the deposited data

Results flagged for a closer look

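In Eif2ak2, fat minus spleen on the 3 slides was −0.46, −0.39 and −1.40 in controls and +0.57, +1.11 and +0.29 in knockouts, so every slide moved one way in one genotype and the opposite way in the other. The test of that difference gave 1.41 (limma adjusted p 0.999). In Isg20, an exonuclease that degrades single-stranded RNA, knockout minus control was +1.31, +0.18 and +0.61 in fat and −0.36, −0.37 and −0.26 in spleen, with a difference of 1.03 (adjusted p 0.999). In Oas3 it was +0.02, +0.36 and +1.16 in fat and −0.33, −0.10 and −0.22 in spleen, with a difference of 0.73 (adjusted p 0.999). Oas3 was detected in 4 of 12 arrays and in no fat control array, so its small differences lie near the detection limit. These 3 genes were picked from the 30 measured members for this pattern of signs. The share of all genes that show the pattern was not counted, so it is not a result about the members.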

How the results depend on the processing

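Each result was recomputed under 25 to 27 alternatives, 12 of which leave out 1 array. Over both genotypes, the count of members that passed was 10 with probes averaged and 8 of 25 with detection in 6 arrays. It was 8 with the slide as a random replicate block (correlation 0.0526), 9 with robust eBayes and 5 to 8 without 1 array. Of all 10025 genes, 1749 passed with probes averaged, 1725 with the random block and 1726 with robust eBayes, beside 1572 in the main fit. With detection in 6 arrays, 1549 of 8047 genes passed. Gbp3 passed as higher with detection in 6 arrays, the random block, robust eBayes, cyclic loess and median scaling. In controls the count was 5 with probes averaged, 1 with cyclic loess and 1 with median scaling. It was 1 with detection in 3 arrays of each tissue (added after the data were seen) and 1 to 4 without 1 array. Of all genes in controls, 799 passed with probes averaged, 583 with cyclic loess and 527 with median scaling, beside 646 in the main fit. In knockouts the count was 6 with probes averaged and 1 to 4 without 1 array. Of all genes in knockouts, 682 passed with probes averaged, beside 579 in the main fit. With the slide as a fixed replicate block the counts were 3, 3 and 6, since Irf9 was added over both genotypes, and no other member call changed. In the comparisons of knockout with control the count stayed at 0.

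The median over members, both genotypes, was −0.47 with cyclic loess, −0.41 with median scaling, −0.28 with no background correction, −0.38 with offset 50, −0.28 in the deposited normalized table and −0.67 to −0.52 without 1 array. In controls it was −0.37 with no background correction and −0.37 in the deposited table (−0.80 to −0.57 without 1 array), and in knockouts −0.33 with median scaling, −0.37 with no background correction and −0.37 in the deposited table (−0.67 to −0.56 without 1 array). Without 1 array it was −0.10 to 0.23 for the knockout in spleen and −0.11 to 0.23 for the difference between tissues. Median scaling moved the median of all genes from −0.069 to 0.058, and the members' median less that of all genes was −0.49 before and −0.47 after. Of all genes, 843 were lower and 729 higher, against 455 and 856 with median scaling and 623 and 822 with cyclic loess.

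Usp18 passed in every alternative that kept it; it has no value with detection in 3 arrays of each tissue. Ifit2, Ifit3 and Psmb9 passed over both genotypes in all 26. Parp14 was lost with median scaling (0.0980) and no filter (0.0633). Ifit3 in spleen, knockout minus control, turned to −0.040 with probes averaged. The causes were not tested. Dim signal limits Usp18, Oas3, Rsad2, Ifih1, Dhx58 and Cmpk2, since most fat arrays did not detect them. In Usp18, detected in 1 of 6 fat arrays, it limits what the size of the difference can show.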

Other observations

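The interferon-induced genes did not move as 1 block between tissues. The 3 measured Ifitm genes were higher in fat on all 6 slide pairs. Of the 34 further induced genes, 5 were lower in every fat array than in any spleen array, with Trim21, Slfn1, Ifi47 and Nmi among them. Another 3 were higher in every fat array than in any spleen array. Beside these counts, 4.86% of all genes were apart in this way and lower, and 4.85% were higher. The median over the 34 further induced genes was −0.74 in controls and −0.72 in knockouts, beside −0.73 and −0.60 over the members.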
